A study of Mus musculus with 12 samples.

Results

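A list of 36 genes of the skeletal muscle contractile apparatus and its energy supply was followed in mouse cochlea. The members were taken by name from the gene symbols of the array's probe annotation, and 35 of the 36 had a probe. Myh2, the myosin heavy chain of fast oxidative fibres, is not named in that annotation and was not analysed here. The members had 70 probes in all, and each gene was represented by its brightest probe. Of the 35 genes, 31 had a brightest probe above the median level of all probes (5.87) and entered the test. Casq1, Myh7, Tnni1 and Neb lay below it. For comparison, 19057 genes had a probe with a single gene symbol, and 12595 of them passed the same filter.

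Skeletal muscle fibres contract when myosin of the thick filaments pulls on actin of the thin filaments, under the control of troponin and of calcium released from the sarcoplasmic reticulum. Fast and slow fibres use different versions of the same parts: each fibre type has its own myosin heavy and light chains, its own 3 troponin subunits and its own calcium pump and store protein. Energy comes from creatine kinase, glycogen breakdown, glycolysis and mitochondria. The middle ear that surrounds the cochlea holds striated muscle, the tensor tympani and the stapedius, whereas the sensory epithelium, the stria vascularis and the spiral ligament of the cochlea are not muscle tissue.

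The mice were of the inbred strain C57BL6j, aged 4, 15 or 45 weeks and kept under standard conditions with no treatment. Cochleae were dissected free of the vestibular organs, pooled in 5s and put through a column kit for total RNA, and biotin-labelled RNA was hybridised to Illumina BeadChips. The labels give 2 biological replicates, named a and b, at each age and 2 technical replicates of each, so that 12 arrays represent 6 pools. The labels state neither whether a pool held 5 animals or 5 single cochleae, nor the sex of the mice. Pools were taken as replicates (n = 2 at each age), and so few of them limit how precisely any difference can be known.

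Levels are given on the log2 scale as normalised by the authors, on which 1 unit is a 2-fold difference and the median of each array was 5.89. Levels of different genes were not set against each other, since they come from different probes. Differences of dim probes, near or below the array median, are understated on this scale. Whether a dim probe was above background was not assessed. In bulk tissue, fewer cells of a type and less RNA per cell cannot be told apart.

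Markers of the labelled tissue were present in all 6 pools. Otos, a secreted protein of the spiral ligament, lay between 12.52 and 13.26. The ion transporter Slc12a2 of the stria vascularis lay between 12.33 and 12.76. Otof, the calcium sensor of the hair cell synapse, lay between 7.61 and 8.12.

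The pools differed in sex-linked transcripts. The level of Xist, the RNA that coats the silenced X chromosome in female cells, was 8.56 in pool b of 4 weeks and 7.60 in pool b of 45 weeks, and between 5.85 and 5.95 in the other pools. The Y-linked gene Eif2s3y was at 5.53 and 5.65 in those same pools b and between 9.54 and 9.81 elsewhere. Kdm5d, also Y-linked, was at 5.57 and 5.67 in these pools and between 6.72 and 6.98 elsewhere, and Uty was at 5.97 and 6.10 in these pools and between 6.19 and 6.33 elsewhere. Both pools of 15 weeks had low Xist and high Eif2s3y.

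The upstream sequences of 5 members are shown first because they carry matches to elements known from muscle genes, and because 3 of them belong to the myosin heavy chain cluster on chromosome 11. Each window runs from 250 bases before to 50 bases after the gene's start, in RefSeq's annotation of build GRCm38.p6. Capitals mark matches to the MEF2 site, the element of the myocyte enhancer factor 2 family, and to the CArG box, the element of serum response factor, both searched on both strands. Myh1 lies at chr11:67199852-67200151 and Myh4 at chr11:67237562-67237861, both on the plus strand, and encode fast fibre myosins. Myh8, the perinatal myosin, lies at chr11:67276874-67277173 on the plus strand. Acta1, skeletal alpha actin, lies at chr8:123894726-123895025 on the minus strand. Myl3, the essential light chain of slow fibres and of heart ventricle, lies at chr9:110763428-110763727 on the plus strand.
Myh1: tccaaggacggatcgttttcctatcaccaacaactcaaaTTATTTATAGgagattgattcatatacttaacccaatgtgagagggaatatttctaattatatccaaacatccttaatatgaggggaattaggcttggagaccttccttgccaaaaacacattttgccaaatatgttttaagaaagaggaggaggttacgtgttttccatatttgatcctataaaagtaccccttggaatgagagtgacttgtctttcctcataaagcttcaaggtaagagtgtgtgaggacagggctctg
Myh4: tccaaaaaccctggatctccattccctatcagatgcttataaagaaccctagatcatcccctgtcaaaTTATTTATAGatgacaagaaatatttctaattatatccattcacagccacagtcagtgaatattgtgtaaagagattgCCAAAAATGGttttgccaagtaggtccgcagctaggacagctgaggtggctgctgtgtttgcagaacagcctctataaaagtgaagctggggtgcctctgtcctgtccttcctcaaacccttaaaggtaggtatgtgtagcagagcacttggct
Myh8: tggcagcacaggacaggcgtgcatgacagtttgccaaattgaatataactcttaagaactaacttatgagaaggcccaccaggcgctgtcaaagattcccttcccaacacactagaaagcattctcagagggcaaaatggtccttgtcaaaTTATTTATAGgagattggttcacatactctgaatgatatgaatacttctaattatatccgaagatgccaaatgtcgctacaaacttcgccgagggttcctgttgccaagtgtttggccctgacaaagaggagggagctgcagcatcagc
Acta1: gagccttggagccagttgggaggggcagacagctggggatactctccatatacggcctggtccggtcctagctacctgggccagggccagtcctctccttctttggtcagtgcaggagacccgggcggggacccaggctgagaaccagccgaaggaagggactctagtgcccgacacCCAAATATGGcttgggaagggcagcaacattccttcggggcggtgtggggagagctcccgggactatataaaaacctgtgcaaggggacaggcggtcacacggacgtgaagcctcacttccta
Myl3: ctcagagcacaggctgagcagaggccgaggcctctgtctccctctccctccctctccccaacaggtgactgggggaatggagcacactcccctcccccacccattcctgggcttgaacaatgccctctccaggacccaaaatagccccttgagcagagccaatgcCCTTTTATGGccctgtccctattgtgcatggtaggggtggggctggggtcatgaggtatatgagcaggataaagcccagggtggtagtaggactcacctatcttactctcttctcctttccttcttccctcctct

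The MEF2 match was spelled TTATTTATAG in Myh1, Myh4 and Myh8, and began 211, 182 and 99 bases before the start. It overlapped a TATAAA or CANNTG match in each of the 3. Myh4 also held a CArG box 104 bases before the start, and those of Acta1 and Myl3 began 73 and 85 bases before it. Among the 28 members with a window in RefSeq's table, 6 held a MEF2 match (21.4%), against 3.7% of 27025 genes with a window of the same length. A CArG box stood in 3 of the 28 (10.7%), against 1.81% of all genes. The E box CANNTG, which myogenic factors bind, stood in 25 of the 28 (89.3%), against 75% of all genes. These matches are letters in a window and were not related to binding. The 3 myosins with the same MEF2 letters did not vary alike over the pools: their ranges were 1.25 log2 units for Myh1, 2.45 for Myh4 and 0.297 for Myh8.

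Transcripts of fast fibres varied widely among the pools, with 10 of the 11 genes lowest in pool a of 15 weeks and 9 highest in pool b of 45 weeks. Of all genes tested, 15.9% were lowest in pool a of 15 weeks. The share highest in pool b of 45 weeks was not computed, so counts of that kind, here and below, stand without a background. Myh4, the heavy chain of the fastest glycolytic fibres, lay at 9.15 and 9.94 in the pools a and b of 4 weeks, at 7.49 and 8.62 at 15 weeks, and at 7.51 and 9.22 at 45 weeks. Both pools of 15 weeks lay below both of 4 weeks, and pool b of 45 weeks overlapped the 4-week range. Myh1, the heavy chain of intermediate fast fibres, lay at 8.65 and 9.52, then 8.28 and 9.21, then 8.45 and 9.47 in the same order. In Myh1 pool b exceeded pool a by about as much at each age, and the ages overlapped.

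The fast light chains are Myl1, the essential chain, and Mylpf, the phosphorylatable chain. Myl1 lay at 13.20 and 13.05 at 4 weeks, at 11.98 and 13.35 at 15 weeks, and at 12.86 and 13.49 at 45 weeks. Mylpf lay at 10.86 and 11.34, at 9.80 and 11.53, and at 11.10 and 11.99. Pool a of 15 weeks was the lowest for both chains, and its partner of the same age lay above both 4-week pools.

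The fast troponins had these same extremes. Tnnt3, which anchors troponin to tropomyosin, lay at 9.30 and 10.11 at 4 weeks, at 7.99 and 10.14 at 15 weeks, and at 9.10 and 10.57 at 45 weeks. Tnni2, the inhibitory subunit, lay at 10.92 and 11.55, at 9.93 and 11.67, and at 11.03 and 12.25. Tnnc2, the calcium-binding subunit, lay at 11.30 and 11.53, at 9.76 and 11.62, and at 10.84 and 12.34. For these subunits the lowest and the highest pool were pool a of 15 weeks and pool b of 45 weeks, and the levels at 4 weeks lay between.

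Actn3, the alpha actinin of fast fibre Z discs, lay at 7.59 and 8.0 at 4 weeks, at 6.79 and 7.97 at 15 weeks, and at 7.17 and 8.59 at 45 weeks. Mybpc2, the fast myosin binding protein C, lay at 8.04 and 8.52, at 7.11 and 7.94, and at 7.34 and 8.64. Atp2a1, the calcium pump of the fast fibre reticulum, lay at 11.94 and 12.12, at 10.63 and 12.07, and at 10.67 and 12.38. In Mybpc2 both pools of 15 weeks lay below both of 4 weeks, and in Actn3 and Atp2a1 the ages overlapped. Casq1, the calcium store protein of fast fibres, differed little, from 5.51 to 5.64, and its probe lay below the median of all probes in every pool.

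**Figure D1:**
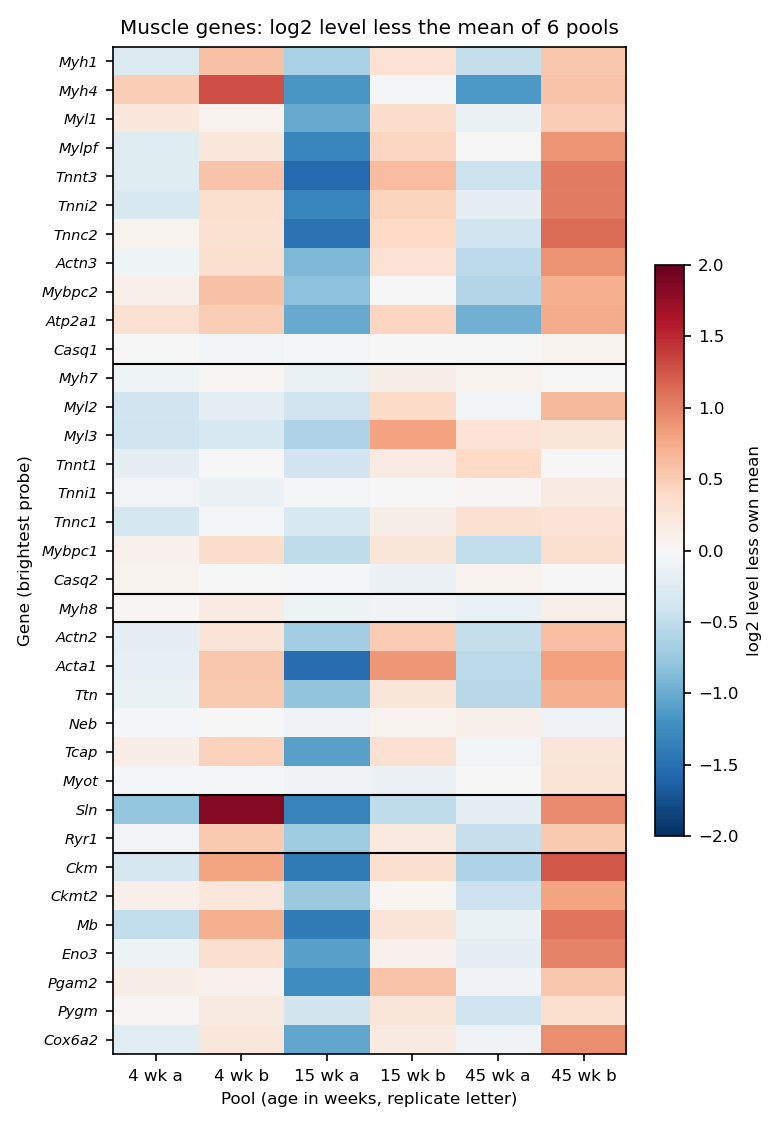
Log2 level of the brightest probe of each of the 35 genes in each of the 6 pools, less that gene's mean over the pools, with red above and blue below the mean. Lines separate the fast fibre genes, the slow fibre genes, Myh8, the thin filament and Z disc genes, the calcium store genes and the energy genes. Pool a of 15 weeks is the lowest pool for 27 of the 35 genes, against 15.9% of all genes tested. Pool b of 45 weeks is the highest for 20, and the share of all genes was not computed.

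Slow fibre transcripts showed smaller differences, on dimmer probes. In 5 of the 8 slow genes both 45-week pools lay above both 4-week pools, against 21.6% of all genes tested and 6 of all 35 members. Among the 5, Tnnt1 was separated only narrowly, at 8.258 in pool b of 45 weeks against 8.252 in pool b of 4 weeks. Tnni1 was below the median level. Tnnc1, the calcium-binding troponin subunit of slow fibres and heart, lay at 6.31 and 6.63 at 4 weeks, at 6.36 and 6.78 at 15 weeks, and at 6.96 and 6.94 at 45 weeks. Both 45-week pools lay above all 4 younger pools. Tnnt1, the slow troponin subunit that binds tropomyosin, lay at 8.05 and 8.25, at 7.87 and 8.42, and at 8.64 and 8.26. Here pool a of 45 weeks was the highest, whereas in all 11 fast genes it lay below pool b of that age.

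Myl2, the regulatory light chain of slow fibres and ventricle, lay at 6.55 and 6.75 at 4 weeks, at 6.55 and 7.32 at 15 weeks, and at 6.88 and 7.59 at 45 weeks. Myl3 lay at 5.87 and 5.96, at 5.64 and 7.07, and at 6.56 and 6.51. In both chains the 45-week pools lay above both 4-week pools and overlapped the 15-week range. The 2 arrays of pool b at 15 weeks differed for Myl3, at 6.57 and 7.58, so that its level there rests on discordant arrays.

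Mybpc1, the slow myosin binding protein C, lay at 7.33 and 7.60 at 4 weeks, at 6.73 and 7.48 at 15 weeks, and at 6.75 and 7.56 at 45 weeks. Mybpc1 was 1 of 5 of the 8 slow genes lowest in pool a of 15 weeks. The same held for 10 of the 11 fast genes and 15.9% of all genes tested. Mybpc1 was highest in pool b of 4 weeks. The remaining slow members lay near the array median. Myh7, the slow myosin heavy chain, lay at 5.72 and 5.84, at 5.66 and 5.91, and at 5.88 and 5.80. The inhibitory subunit Tnni1 lay at 5.69 and 5.63, at 5.71 and 5.75, and at 5.76 and 5.91. Casq2, the calcium store protein of slow fibres and heart, lay at 5.99 and 5.91, at 5.89 and 5.81, and at 6.0 and 5.92. The ranges of these 3 genes over the pools were 0.251, 0.277 and 0.187.

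**Figure D2:**
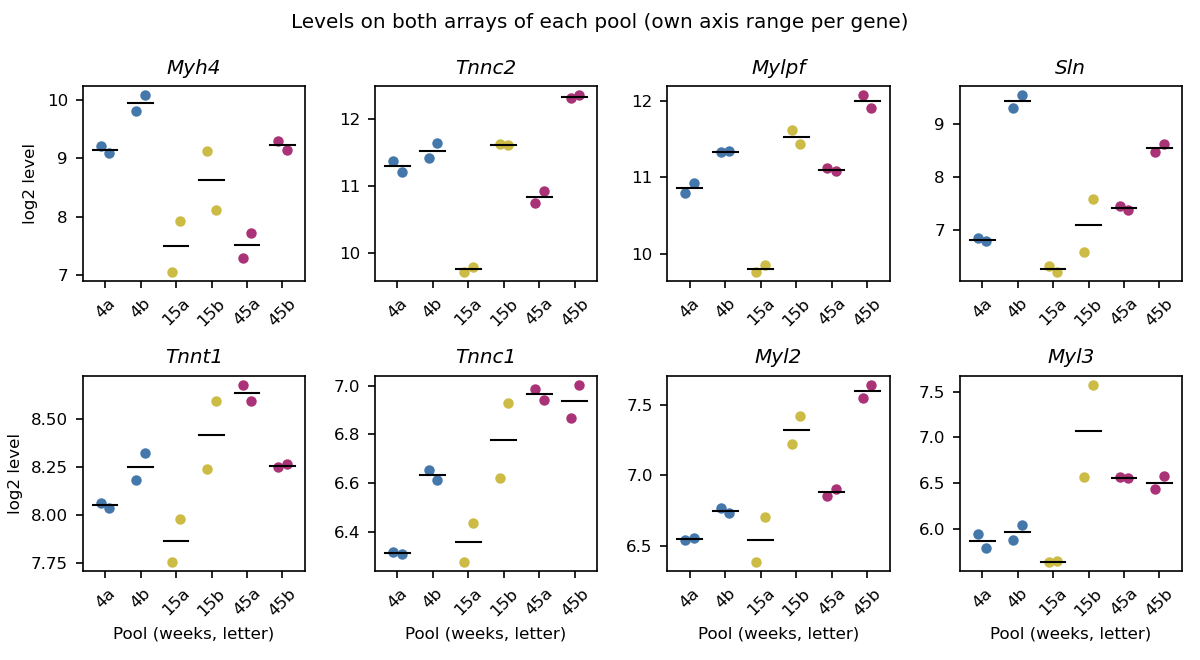
Log2 level of 8 members on both arrays of each pool (points), with the pool mean as a line and the age in weeks and the replicate letter on the horizontal axis. Each panel has its own vertical range. Myh4, Tnnc2 and Mylpf differ between pools of 1 age, Sln is highest in pool b of 4 weeks at 9.43, and both 45-week pools of Tnnc1 lie above the 4 younger pools.

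Fast and slow genes were then compared within each pool. For each gene the mean over the 6 pools was subtracted, and the deviations were averaged over the 11 fast and the 8 slow genes. The fast mean was 0.00 and 0.43 in pools a and b of 4 weeks, -1.02 and 0.29 at 15 weeks, and -0.44 and 0.74 at 45 weeks. The slow mean was -0.16 and -0.03, -0.30 and 0.22, and 0.08 and 0.21 in the same order. The slow genes therefore spanned a narrower range, and both lists were lowest in pool a of 15 weeks. The slow list was read by dimmer probes, on which differences are understated. Its mean level lay between 6.30 and 6.82 over the pools, against 8.66 to 10.42 for the fast list. The share of probe brightness in the narrower range and in the fast less slow values below was not tested.

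The fast mean less the slow mean was 0.17 and 0.46 at 4 weeks, -0.72 and 0.08 at 15 weeks, and -0.52 and 0.53 at 45 weeks. Both 4-week pools were positive, and each older age held 1 negative pool, pool a. The arrays of pool b at 15 weeks gave 0.29 and -0.14, so its sign differed between technical replicates. With the 10 fast and 6 slow genes above the median level, the values were 0.20 and 0.50, -0.74 and 0.05, and -0.57 and 0.55.

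Between age means the fast mean less the slow mean differed by -0.63 from 4 to 15 weeks, by 0.33 from 15 to 45 weeks and by -0.31 from 4 to 45 weeks. The pooled SD of this score between pools of 1 age was 0.549 (n = 2 per age). The first difference was the only one larger than that SD. It was -0.24 without pool a of 15 weeks. Without that pool the difference from 15 to 45 weeks was -0.07, and it was -0.20 without pool b of 45 weeks. The difference from 4 to 45 weeks was 0.22 without pool a of 45 weeks. No test was made on these scores, since the members were chosen with earlier results known.

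**Figure D3:**
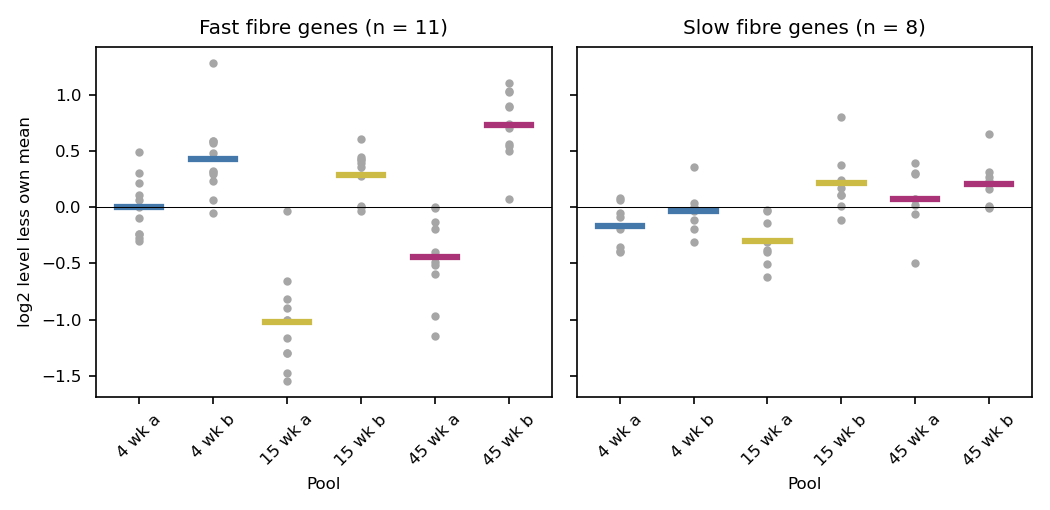
Deviation of each fast (left, n = 11) and slow fibre gene (right, n = 8) from its own mean over the 6 pools, in log2 units, with points for genes and bars for list means, by pool. The fast mean ranges from -1.02 in pool a of 15 weeks to 0.74 in pool b of 45 weeks, and the slow mean from -0.30 to 0.22.

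Counterparts with the same role were set side by side. From 4 to 15 weeks the log2 difference of the fast version lay below that of the slow one in 7 of the 8 pairs. For calcium-binding troponin, Tnnc2 differed by -0.73 and Tnnc1 by 0.09. For the essential light chains, Myl1 differed by -0.46 and Myl3 by 0.44, and for the phosphorylatable chains Mylpf differed by -0.43 and Myl2 by 0.28. The myosin binding proteins C both differed downward, Mybpc2 by -0.76 and Mybpc1 by -0.36. The pair of Casq1 and Casq2 ran the other way, at 0.01 and -0.10, with both probes near or below the median level. The signs of the fast genes rest in part on pool a of 15 weeks. Without it, an alternative chosen after seeing the data, Tnnc2 differed by 0.21 from 4 to 15 weeks, Myl1 by 0.22 and Mylpf by 0.43, and the fast version lay below the slow one in 5 of the 8 pairs. The fast version lay below the slow one in only 1 of the 8 pairs from 15 to 45 weeks. With 1 pool left out this count ran from 0 to 5. From 4 to 45 weeks the fast version lay below the slow one in 5 of the 8, and in 3 to 8 of them with 1 pool left out. Tnni2 differed by 0.40 against 0.17 for Tnni1, whereas Myh4 differed by -1.18 against 0.06 for Myh7.

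Myh8, the myosin heavy chain of perinatal muscle, also kept in some specialised muscles of adults, stayed within a narrow range. It lay at 6.30 and 6.43 at 4 weeks, at 6.16 and 6.20 at 15 weeks, and at 6.13 and 6.36 at 45 weeks. Both 15-week pools were below both 4-week pools, by a difference of means of -0.18 (SE 0.13).

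Among the thin filament, titin and Z disc genes, Acta1 showed the widest gap between pools of 1 age. It lay at 11.38 and 12.09 at 4 weeks, at 10.03 and 12.41 at 15 weeks, and at 12.36 in pool b of 45 weeks, while the arrays of pool a of that age read 10.94 and 11.06. The 15-week pools thus held both the lowest and the highest level of this actin. Tcap, which caps titin at the Z disc, ranged from 10.21 to 11.75 and had the largest difference of its group from 4 to 15 weeks, -0.68 (SE 0.41). Actn2, the general muscle alpha actinin, ranged from 7.94 to 9.23 and had the smallest difference from 15 to 45 weeks among the members of the group that were tested, 0.15 (SE 0.47). Ttn, the giant elastic protein titin, ranged from 6.78 to 8.29. Myot, a Z disc protein, ranged from 5.81 to 6.18, and Neb, the thin filament ruler nebulin, from 5.45 to 5.63 below the median level.

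Sln and Ryr1 act on the calcium store in both fibre types. Sln encodes sarcolipin, an inhibitor of the calcium pump. It lay at 6.82 and 9.43 at 4 weeks, at 6.27 and 7.09 at 15 weeks, and at 7.42 and 8.55 at 45 weeks. Its gap of 2.61 between the 4-week pools exceeded every gap of another member within an age, and pool b of that age was its highest. Both 45-week pools lay above both 15-week pools, by a difference of means of 1.30 (SE 0.81). The second Sln probe stayed between 5.34 and 5.52, so this pattern rests on 1 probe. Ryr1, the calcium release channel, ranged from 6.80 to 8.04 and was lowest in pool a of 15 weeks.

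Of the 7 energy genes, 6 were lowest in pool a of 15 weeks and 6 were highest in pool b of 45 weeks, the pools in which the fast mean was lowest and highest. Pygm was the exception for the lowest pool and Pgam2 for the highest. Ckm, the cytosolic creatine kinase of muscle, lay at 8.48 and 9.61 at 4 weeks, at 7.40 and 9.14 at 15 weeks, and at 8.20 and 10.05 at 45 weeks. Mb, the oxygen-binding protein myoglobin, lay at 10.70 and 11.90, at 9.79 and 11.44, and at 11.05 and 12.26. In both genes pool b exceeded pool a by more than 1 log2 unit at every age, and the ages overlapped. Ckmt2, the mitochondrial creatine kinase, ranged from 7.55 to 9.08. Cox6a2, the striated muscle subunit of cytochrome c oxidase, ranged from 9.44 to 11.40. The glycolytic enzymes Eno3 and Pgam2 ranged from 8.13 to 10.20 and from 7.92 to 9.73. Pygm, which breaks down glycogen, ranged from 6.13 to 6.85.

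Differences between ages were small beside those between pools of 1 age. For the 31 members tested, the median gap between the arrays of a pool was 0.178, between the pools of an age 0.885 and between age means 0.378. For all 12595 genes tested these medians were 0.165, 0.173 and 0.138. Averaged over the pools, the members thus resembled other genes in the agreement of technical arrays, and they differed from them between pools. In pool b of 15 weeks the arrays agreed less well for the members, with a median gap of 0.306 against 0.166 for all genes tested. The gap between pools exceeded that between ages in 29 of the 31 members (93.5%) and in 62.5% of all genes tested. Age means average 2 pools each, which narrows their gap beside that of single pools, for the members and for all genes alike. The median range over the pools was 1.53 for the members and 0.424 for all genes tested.

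**Figure D4:**
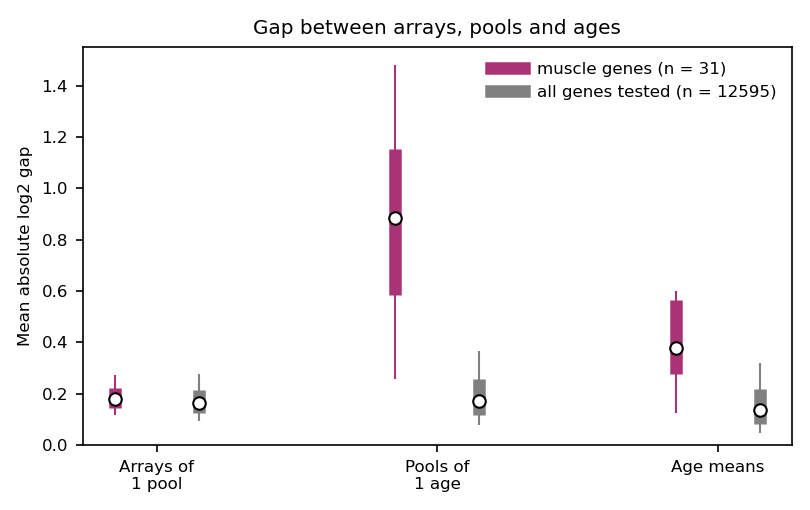
Mean absolute log2 gap between arrays of 1 pool, between pools of 1 age and between age means, for the 31 members tested and all 12595 genes tested. Circles are medians, thick bars the middle 50% of genes and thin bars the range from the 10th to the 90th percentile. The members' median gap between pools is 0.885, against 0.173 for all genes tested.

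The labels do not link the letters a and b across ages, and most members were higher in pool b at each age. Pool b was above pool a in 29 of the 35 genes at 4 weeks, against 51% of all genes tested, with a median gap of 0.32. At 15 weeks this held for 33 of the 35, against 54.1%, with a median gap of 1.04. At 45 weeks it held for 29 of the 35, against 47.4%, with a median gap of 0.98. All 3 ages had this order in 24 of the 35 genes, against 11.1% of all genes tested. Among these were 9 of the 11 fast genes, 6 of the 7 energy genes and 2 of the 8 slow genes. Pool a of 15 weeks was the lowest of the 6 pools in 27 of the 35 genes, against 15.9% of all genes tested. Pools b of 4 and 45 weeks were the Xist-high pools, while the largest median gap fell at 15 weeks, where both pools had low Xist. The share of either in the members' levels was not tested.

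Other probes of the same genes were examined as a check on single probes. Of the further member probes, 17 from 12 genes lay above the median level. The sign of pool b less pool a was that of the brightest probe at all 3 ages in 12 of the 17. A total of 22 of the 70 member probes lay below the median level.

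No member passed the test between any pair of ages. From 4 to 15 weeks, limma with Benjamini-Hochberg adjustment over 22640 probes called 0 of the 31 members tested, and 0% of all probes. At an unadjusted p under 0.05 it found 151 probes higher and 151 lower, including 1 member. This was Myh4, at -1.49 (SE 0.60, adjusted p = 1.00 by limma). From 15 to 45 weeks limma again called 0 members and 0% of all probes, with 907 probes higher and 938 lower at an unadjusted p under 0.05, none of them the brightest probe of a member. From 4 to 45 weeks it called 0 members and 0% of all probes, with 1505 higher and 1632 lower at an unadjusted p under 0.05. The 1 member among these was Tnnc1, at 0.48 (SE 0.18, adjusted p = 0.325 by limma).

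As a group the 35 genes lay lower at 15 than at 4 weeks and higher at 45 than at 15 weeks, with the direction resting on 1 pool. From 4 to 15 weeks the median log2 difference was -0.44, against -0.01 over all genes tested, and 7 of the 35 were higher, against 46.7% of all genes tested. It was 0.12 without pool a of 15 weeks, -0.15 without pool b of 4 weeks and -0.997 without pool b of 15 weeks. With the Xist level as a covariate it was -0.02. Both pools of 15 weeks lay below both of 4 weeks in 6 of the 35 genes, against 14.7% of all genes tested.

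From 15 to 45 weeks the median difference was 0.35, against -0.01 over all genes tested, and 35 of the 35 genes were higher, against 48.7%. Without pool a of 15 weeks the median was -0.05, and without pool b of 45 weeks it was 0.03. Both 45-week pools lay above both 15-week pools in 5 of the 35 genes, against 20.2% of all genes tested, so that complete separation of the pools was no more frequent among the members. From 4 to 45 weeks the median was 0.06, against -0.02 over all genes tested, and 23 of the 35 were higher, against 47.1%. It was -0.03 without pool a of 4 weeks and -0.30 without pool b of 45 weeks. Both 45-week pools lay above both 4-week pools in 6 of the 35, against 21.6%. Of these 6, 5 were slow genes, Myl2, Myl3, Tnnt1, Tnni1 and Tnnc1, and the other was Myot.

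By role, the median difference from 4 to 15 weeks was -0.46 for the fast genes (1 of 11 higher), 0.04 for the slow genes (5 of 8 higher), -0.30 for the thin filament and Z disc genes (1 of 6 higher) and -0.52 for the energy genes (0 of 7 higher). From 15 to 45 weeks it was 0.50, 0.14, 0.29 and 0.86 in the same order. From 4 to 45 weeks it was 0.06 for the fast genes (7 of 11 higher) and 0.24 for the slow genes (7 of 8 higher). The largest differences of the energy genes were -0.78 for Ckm from 4 to 15 weeks (SE 0.76) and 1.04 for Mb from 15 to 45 weeks (SE 0.65). Each was within 2 SE of 0.

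Muscle genes outside the 36 were examined in lists of 104 genes by role, of which 93 had a probe and 74 were tested. None passed the test in any comparison (limma, adjusted p from 0.288 upward), and at an unadjusted p under 0.05 there were 0 higher and 2 lower from 4 to 15 weeks, 1 and 0 from 15 to 45 weeks, and 4 and 3 from 4 to 45 weeks. Of 33 further sarcomere and Z disc genes, 23, 26 and 29 were higher in pool b at 4, 15 and 45 weeks, and 21 were lowest in pool a of 15 weeks. From 4 to 15 weeks the largest differences of this list were -0.61 for Myoz3 (SE 0.28), one of the calcineurin-binding Z disc proteins, and -0.53 for Cmya5 (SE 0.45). From 15 to 45 weeks they were 0.77 for Myoz1 (SE 0.47), of the same family as Myoz3, and 0.65 for Tmod4 (SE 0.43), which caps thin filaments. From 4 to 45 weeks they were 0.51 for Csrp3 (SE 0.48), a muscle LIM protein, and 0.49 for Ldb3 (SE 0.18), a Z disc scaffold.

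Of 22 further energy genes, 7 were higher at 15 than at 4 weeks and 15 higher at 45 than at 15 weeks. From 4 to 15 weeks the largest differences were -0.39 for Adssl1 (SE 0.12), a purine cycle enzyme, and -0.26 for the fatty acid binding protein Fabp3 (SE 0.18). Cox7a1, a cytochrome c oxidase subunit of heart and muscle, lay at 10.44 and 11.09, at 10.55 and 11.15, and at 11.28 and 11.94. Both of its 45-week pools lay above all 4 younger pools, and it differed by 0.75 from 15 to 45 weeks and by 0.84 from 4 to 45 weeks (SE 0.32). Next came Ak1, an adenylate kinase, at 0.49 from 15 to 45 weeks (SE 0.22), and Cox8b, another oxidase subunit, at 0.40 from 4 to 45 weeks (SE 0.34).

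Among 18 excitation and calcium genes, the largest differences from 4 to 15 weeks were -0.35 for the calcium channel subunit Cacng1 (SE 0.27) and -0.29 for Hrc (SE 0.47), a calcium-binding protein of the reticulum. From 15 to 45 weeks Hrc differed by 0.51 and Atp2a2, the calcium pump of slow fibres and of many other cells, by -0.46 (SE 0.21). From 4 to 45 weeks Cacna2d1, a calcium channel subunit of many tissues, differed by -0.60 (SE 0.32) and Atp2a2 by -0.43.

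The myogenic and end plate list had 18 genes with a probe, of which 8 passed the filter. Pax7, Myod1, Myf5 and Myog, regulators of muscle stem cells and myoblasts, were not among those. From 4 to 15 weeks the acetylcholine receptor subunit Chrnb1 differed by -0.37 (SE 0.13) and the regulator Six4, below the median level, by -0.21. Rapsn, which clusters the receptors at the end plate, differed by 0.38 from 15 to 45 weeks and by 0.52 from 4 to 45 weeks (SE 0.16). Mef2c, a MEF2 family factor also found outside muscle, differed by -0.27 and -0.38 in these comparisons (SE 0.34). Of the developmental and specialised myosins, Myl4 differed by 0.32 from 4 to 15 weeks (SE 0.38) and Myl6b by 0.47 from 15 to 45 weeks (SE 0.22).

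Among the 12564 other genes tested, those closest to the median profile of the members were mostly muscle genes. The profile was -0.11 and 0.32 at 4 weeks, -0.90 and 0.25 at 15 weeks, and -0.20 and 0.65 at 45 weeks, in pools a and b. Closeness was the root mean square distance over the 6 pools, with a median of 0.280 for the members themselves and 0.509 for all genes tested. The 10 closest were Tmod4 (0.08), Klhl41 (0.09), Rpl3l (0.11), Trim72 (0.13), Hrc (0.15), Myoz1 (0.16), Mylk2 (0.16), Des (0.17), Nrap (0.20) and Rtn2 (0.20). Of these, 7 stood in the muscle lists above, which held 74 of the 12564 genes. Those lists were chosen with earlier results of these data known. Tmod4, the closest, lay at 8.38 and 8.80, at 7.62 and 8.65, and at 8.27 and 9.31.

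Marker lists of other cell types were read in the same pools. Of 10 heart genes 8 lay below the median level, among them Nppa and Mybpc3, and Myh6 lay just above it. These 3 stayed between 5.66 and 6.05. The cardiac actin Actc1 lay at 8.10 and 6.71, at 6.66 and 8.08, and at 8.12 and 8.56, an order of pools unlike that of the skeletal actin Acta1. The mean deviation of the smooth muscle and pericyte list (10 genes) stayed between -0.19 and 0.12, with Acta2 highest at 12.75 in pool a of 15 weeks, where the members were lowest. In this list Des, an intermediate filament of smooth and striated muscle, had the members' order, at 8.22 and 8.83, 7.85 and 8.75, and 8.01 and 9.24. Hair cell genes (12) stayed between -0.09 and 0.09 and stria vascularis genes (7) between -0.06 and 0.12.

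Bone markers had the members' order of pools at 15 weeks and not at 4 weeks. The mean deviation of 10 osteoblast and osteocyte genes was -0.12 and -0.57 at 4 weeks, -0.54 and 0.56 at 15 weeks, and 0.27 and 0.40 at 45 weeks. Pool b was above pool a in 1, 10 and 4 of the 10 at the 3 ages. Bglap, the bone matrix protein osteocalcin, lay at 13.66 and 12.52, at 12.78 and 14.27, and at 14.19 and 14.19. In the 4-week pools the order of this list was thus opposite to that of the members.

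Lists of other tissues around the cochlea were read in the same way. The means of the pituitary and of the tendon and cartilage list shared the members' lowest and highest pool, but most of their genes did not share both. Pool a of 15 weeks was lowest in 3 of 7 pituitary and 5 of 7 tendon and cartilage genes. Pool b of 45 weeks was highest in 2 of 7 of each. By medians, tendon and cartilage was lowest in pool b of 4 weeks (-0.17) and highest in pool b of 15 weeks (0.11). Pituitary genes (7) were lowest in pool a of 15 weeks, at -0.87, and high in both 45-week pools, at 1.31 and, in pool b, 1.62, with the growth hormone gene Gh at 11.87 and 11.70 there and from 5.68 to 7.18 in younger pools. Airway epithelium genes (9) were highest in pool b of 4 weeks, at 0.58, where the secreted lectin Reg3g lay at 9.57. Adipocyte genes (6) were higher in pool b at 4 and 45 weeks, at 0.43 and 0.20 against -0.20 and -0.41 in pool a, and Ucp1 of brown fat lay at 6.85 and 8.17, at 7.71 and 7.41, and at 6.02 and 8.54. Tendon and cartilage genes (7) ranged from -0.29 in pool a of 15 weeks to 0.20 in pool b of 45 weeks, with Col2a1 at 9.30 in that pool and 11.38 in its partner. The part of any of these tissues in the members' levels was not tested.

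**Figure D5:**
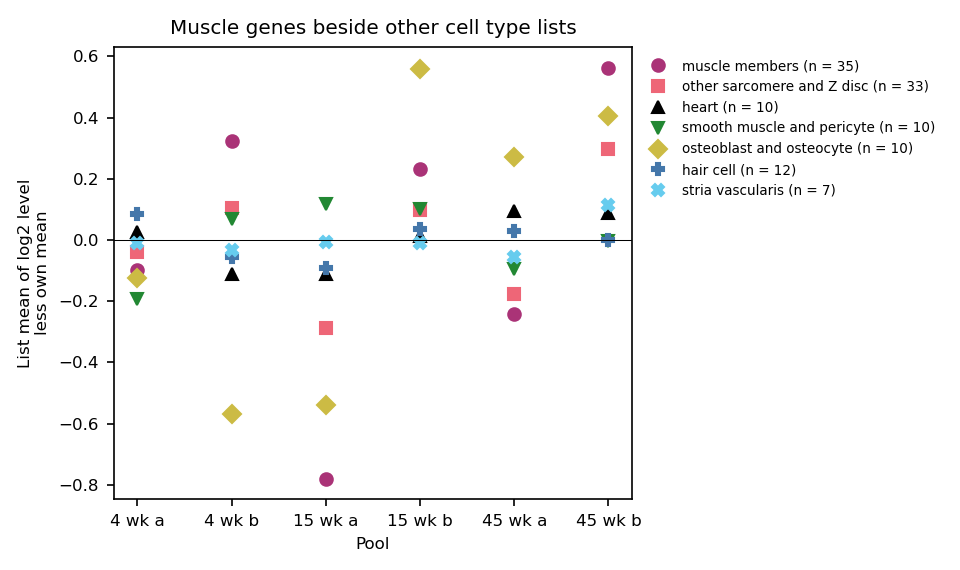
Mean deviation of the genes of a list from their own means over the 6 pools, in log2 units, for the 35 muscle members, 33 other sarcomere and Z disc genes and marker lists of 5 other cell types, by pool. The muscle members range from -0.78 in pool a of 15 weeks to 0.56 in pool b of 45 weeks, and the hair cell and stria vascularis lists stay close to 0.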

How the data were processed

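The values used are log2 levels of 45281 probes that the authors had normalised between arrays before they deposited them. Sorted, the 12 columns hold the same values (largest difference 0), which shows this step. It hides any shift shared by most transcripts. For the background correction and the software, the labels give no information. A second deposited table with 24 columns of per-sample values was not used, since its column names match no sample label.

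Probes were named from the platform annotation, in which 34885 probes carry 1 symbol, 18 carry more than 1 and 10378 carry none. Samples were grouped by the labelled age and replicate letter, and the mean of both arrays stood for a pool, with 2 pools per age. The test took the 22640 probes whose mean exceeded the overall median (5.87). The R package limma 3.58.1 (R 4.3.3) fitted 1 linear model to the 3 ages with lmFit, contrasts.fit and eBayes, on 3 residual and 3.84 prior degrees of freedom. Benjamini-Hochberg adjustment covered all 22640 probes, with calls at an adjusted p under 0.05. Differences are older minus younger, each with its moderated SE. The test was checked on simulated data with a spread drawn from that of all probes tested. The members' wider spread between pools was not simulated, so the check does not tell how well their differences would be found. The p-values measure the spread between pools of 5. Tables were joined with Python 3.11.15 and pandas 2.3.3.

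The members, the fast and slow lists and all other lists were chosen with earlier results of these data known, so no test over a list or score was made. All members are named. Values in every pool are given for fast and slow genes and for Sln, Ckm, Mb, Acta1 and Myh8, and for the rest the range and the largest or smallest difference of a list. For other muscle genes the rule allowed those called and up to 4 of largest absolute difference per list. None was called, and the 2 of largest difference per list and comparison are named, then the 10 genes closest to the members' median profile, the sex-linked genes and up to 3 markers of widest range per cell type. Alternatives were other filters on dim probes, each technical array alone, a fit to every array with pools as random blocks (correlation 0.296), the replicate letter as a block, only both ages compared, a trended robust eBayes, each pool left out, the Xist level as a covariate, all probes of a gene, medians in place of means and a slow list without heart genes. Promoter windows came from RefSeq's table for GRCm38.p6.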

Additional observations from a re-analysis of the deposited data

How the results depend on the processing

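Across 9 results (called members, median difference and fast less slow difference for each pair of ages), 94 of 102 values under alternatives kept their direction and moved by less than the spread between pools. The other 8, which failed at least 1 of these conditions, came from leaving out 1 pool. The counts of called members have no direction, yet all of them are among the 94 values kept. Called members stayed at 0 under every alternative that kept both pools of each age. The smallest adjusted p of a member was 0.114, when limma was fitted to the 12 single arrays with pools as random blocks. Other probes did pass in that fit, 2 of 22640 from 4 to 15 weeks, 6 from 15 to 45 weeks and 183 from 4 to 45 weeks. The other alternatives that kept both pools called from 0 to 2 probes per comparison. With each pool left out in turn, the members' median difference ran from -0.997 to 0.124 for 4 to 15 weeks, from -0.0544 to 0.879 for 15 to 45 weeks and from -0.304 to 0.421 for 4 to 45 weeks. The positive value of the first and the negative one of the second came from leaving out pool a of 15 weeks, and -0.304 from leaving out pool b of 45 weeks. The median from 4 to 45 weeks was -0.0345 without pool a of 4 weeks. The fast less slow difference ran from -1.03 to -0.237, from -0.198 to 0.849 and from -0.832 to 0.215 in the same order. It was -0.0708 for 15 to 45 weeks without pool a of 15 weeks. With Xist as a covariate the median from 4 to 15 weeks was -0.0189. Of 1188 differences of single members under alternatives, 123 turned direction, 95 of them with a pool left out and 19 with the Xist covariate. Many of the 1188 could not turn. In this balanced design the other filters, both kinds of block, the fit to both ages alone and the trended eBayes leave each difference unchanged.

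Over all probes tested, pool b less pool a correlated between ages at -0.112 (4 and 15 weeks), 0.183 (4 and 45 weeks) and -0.388 (15 and 45 weeks). These values show no order of the pools common to most probes. They do not decide whether the letters pair the pools for the members. Of these, 24 of 35 were higher in pool b at all 3 ages, against 11.1% of all genes tested. With the replicate block, 0 members were called in each comparison, with a smallest adjusted p of 1.00, 0.634 and 0.312 (limma). The medians and the fast less slow differences were as without it. They were fixed in advance, since each age holds both letters, yet they count among the values that kept their direction. With 2 pools per age, the spread between pools limits every comparison, and dim probes such as Casq1, Neb, Tnni1 and Myh7 can show little difference.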
